A study of Mus musculus with 12 samples.

Results

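Polycomb repressive complex 1 (PRC1) was followed in cortical endothelium through the RNA of 9 of its subunits: the E3 ligases Ring1 and Rnf2, the PCGF proteins Bmi1, Pcgf3, Pcgf5 and Pcgf6, the chromodomain proteins Cbx7 and Cbx8, and the adaptor Rybp. They were picked by gene symbol, not by their values, and stood on 9 of the 21638 gene rows of the deposited count table. The series holds bulk RNA-seq of endothelial cells sorted from the cerebral cortex of adult mice as CD31-positive cells without CD41 or CD45, surface markers of platelets and leukocytes. Each of 4 genotypes had 3 libraries. WT mice formed the reference group, and the labels do not say whether they carried Cre or received tamoxifen. Hdac2 ECKO mice (Hdac2lox/lox:Cdh5CreERT2) were meant to lose the histone deacetylase gene Hdac2 in endothelium, and Ezh2 ECKO mice (Ezh2lox/lox:Cdh5CreERT2) the PRC2 methyltransferase gene Ezh2. Mice called beta-catenin GOF (Ctnnb1lox/lox:Cdh5CreERT2) carried constitutively active beta-catenin in endothelium. In all mutants the Cre was tamoxifen-inducible and driven by Cdh5, an endothelial gene, tamoxifen was given in 5 doses of 75 mg/kg, and brains were taken 2 months later. Nothing in the labels says that the replicates of a group came from separate animals, so p-values measure only the spread between these libraries.

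PRC1 places ubiquitin on histone H2A and compacts chromatin at silenced genes. Every PRC1 holds a RING protein, Ring1 or Rnf2, paired with 1 PCGF protein. Canonical complexes built on Bmi1 or its paralogue Pcgf2 contain a CBX protein that reads the histone H3 methyl mark laid down by PRC2, while variant complexes, including those built on Pcgf3, Pcgf5 or Pcgf6, contain Rybp or its paralogue Yaf2 instead.

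The 9 genes are protein coding and lie on 8 chromosomes (GRCm38, positions counted from 1). Bmi1 (ENSMUSG00000026739.13) spans chr2:18677018-18686629 on the plus strand and Cbx8 (ENSMUSG00000025578.9) chr11:119036305-119040969 on the minus strand. The exons of Rnf2 share 158 bases with the antisense gene Trmt1l, those of Cbx7 share 100 bases with antisense Apobec3, and those of Pcgf5 share 60 bases with antisense F530104D19Rik. Whether reads were assigned by strand is not given in the sources used here, so reads in those stretches may belong to either gene, and reads of Rybp may be split with its processed pseudogene Rybp-ps on chromosome 13. The RefSeq promoter table (GRCm38.p6) matched 8 of the 9 members, all but Rybp, with 10 windows that run from 250 bases before to 50 bases after a start site. The upstream 250 bases of Bmi1 and Cbx8 are printed here because these members showed the largest differences in opposite directions, and because they alone among the matched members held the E-box word CACGTG, set in capitals. This word reads the same on both strands.

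Bmi1, chr2:18676768-18677017, plus strand: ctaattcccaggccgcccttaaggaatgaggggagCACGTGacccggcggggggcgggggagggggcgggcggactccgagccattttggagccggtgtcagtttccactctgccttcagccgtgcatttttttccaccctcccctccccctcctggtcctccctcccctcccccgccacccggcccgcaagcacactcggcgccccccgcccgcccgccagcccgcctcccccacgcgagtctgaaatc
Cbx8, chr11:119040914-119041163, minus strand: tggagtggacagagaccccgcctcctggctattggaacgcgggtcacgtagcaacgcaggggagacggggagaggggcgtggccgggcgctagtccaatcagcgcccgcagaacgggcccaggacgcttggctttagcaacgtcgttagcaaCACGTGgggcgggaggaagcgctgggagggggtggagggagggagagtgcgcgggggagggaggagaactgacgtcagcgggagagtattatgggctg

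The E-box began 215 bases before the RefSeq start of Bmi1 and 98 bases before that of Cbx8. These starts can differ from the ends of the gene spans given above. That of Cbx8 lies inside its span, so the printed stretch overlaps the gene from 119040914 to 119040969. The Cbx7 window, chr15:79932597-79932896, also lies inside its gene, chr15:79915807-79971119. Among all 32851 windows of the table, 7.15% held CACGTG. None of the 10 member windows held, on either strand, the E2F words TTTCCCGC, TTTGGCGC, TTTCGCGC or TTTGCCGC, which 2.26% of all windows held, or the TCF/LEF words CTTTGAT or CTTTGAA, which 8.65% held. The Bmi1 window contained 23 CG dinucleotides and the Cbx8 window 24, against a median of 7 over all windows with quartiles of 3 and 20. The member windows ranged from 5 CG dinucleotides, in 1 of 3 Pcgf5 windows, to 37 in Ring1.

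Libraries held between 24781070 and 36109975 counts. Markers of endothelium were high throughout, with the 10 listed genes detected in every library at a summed 16313 to 23572 CPM (counts per 1000000 of the TMM-scaled total). Neuronal markers summed to at most 3.47 CPM and astrocyte markers to at most 12.2 CPM. Hemoglobin and Alas2 transcripts were lower in every mutant library than in any WT library. Ezh2 RNA was not lower under its label. It averaged 6.75 ± 3.52 CPM in WT and 8.92 ± 3.36 CPM in Ezh2 ECKO (SD, n = 3 each), with overlapping ranges. The log2 difference was 0.40 (edgeR adjusted p 0.615). The Ezh2 ECKO libraries are therefore called the Ezh2-labelled libraries. Mean Ezh2 RNA was similar in Hdac2 ECKO, at 9.49 CPM, and in beta-catenin GOF, at 9.36 CPM. Hdac2 RNA averaged 129 ± 30.1 CPM in WT, against 96.5 ± 15.1 CPM for Hdac2 ECKO (a log2 difference of -0.42, edgeR adjusted p 0.225). It averaged 96.1 ± 10.1 CPM in beta-catenin GOF too (-0.43, edgeR adjusted p 0.884). Ctnnb1 RNA averaged 654 ± 138 CPM in WT, against 583 ± 109 CPM for beta-catenin GOF (-0.17, edgeR adjusted p 0.962). The floxed exons are not named and the table counts whole genes, so RNA level alone cannot check the alleles. Replicate 2 of the Ezh2-labelled libraries stood apart from all others on the second principal component, at -90.7, and had the fewest genes above 0, 13922.

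PRC1 subunits differed widely in abundance. Levels between genes were compared per kilobase of gene length. For the members this length counts all annotated exonic bases, such as 12629 for Pcgf5 and 3974 for Bmi1, whichever transcripts were expressed. The order therefore depends on it. In WT, Bmi1 led by the group mean with 13.3 CPM per kilobase, a level above that of 75.4% of the 12577 genes tested. Rnf2 followed at 12.3 and Rybp at 9.29 CPM per kilobase, each overlapping the gene ranked above it. Bmi1 over Rnf2 was 0.787, 0.956 and 1.66 in WT replicates 1, 2 and 3, so Rnf2 was the higher in replicates 1 and 2. Pcgf5 stood at 3.27 CPM per kilobase, below all Rybp values and above all Cbx7 values. In CPM, without division by length, Pcgf5 averaged 41.3 in WT, beside 44.1 for Rybp. Cbx7, Cbx8, Pcgf3 and Pcgf6 followed at 1.91, 1.76, 1.58 and 1.25 CPM per kilobase, each overlapping the next. Ring1 came last at 0.539 CPM per kilobase, overlapping Pcgf6. By the group mean, Bmi1 ranked first and Ring1 last in each of the 4 groups, while Rnf2 and Rybp held the next places everywhere.

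**Figure D1:**
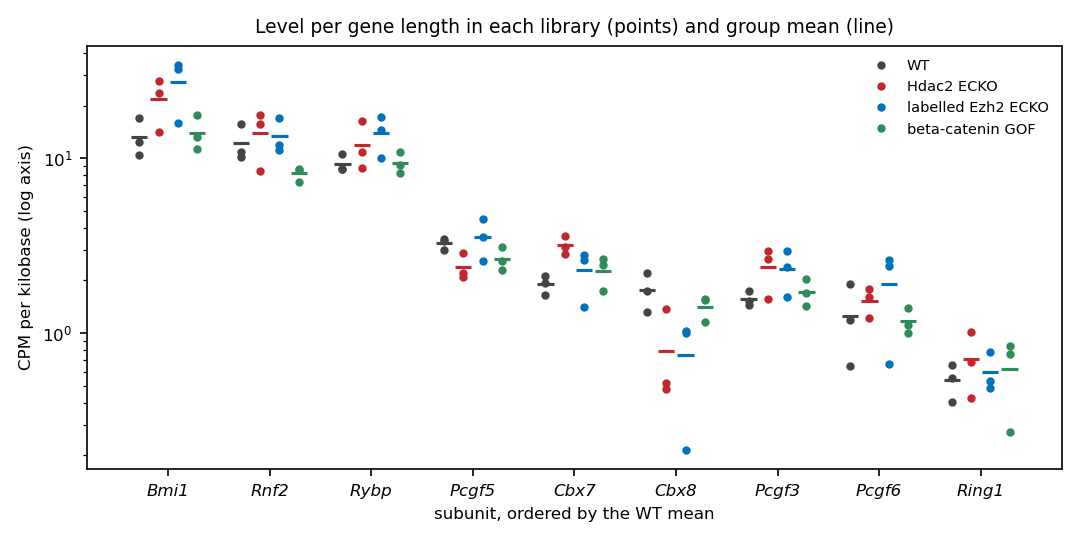
Levels of the 9 PRC1 subunits in CPM per kilobase of gene length (log axis), ordered by the WT mean, with 1 point per library, 3 libraries a group, and a line at each group mean. Bmi1, Rnf2 and Rybp form the upper tier in every group and Ring1 is lowest by the group mean.

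Against this order, no member passed the threshold of edgeR adjusted p under 0.05 in any comparison with WT. In Hdac2 ECKO, 7 of the 9 members were higher and 2 lower than WT by the fitted value, with a median log2 fold change of 0.37, beside 0.097 over all genes tested. No member passed there, where 9.2% of all genes did, and 2 members had an unadjusted p under 0.05, as 33.1% of all genes did. In the Ezh2-labelled libraries, 8 members were higher and 1 lower, with a median of 0.26 beside 0.048 over all genes. Again none passed, against 1.03% of all genes, and 2 had an unadjusted p under 0.05, as 24.7% of all genes did. In beta-catenin GOF, 5 members were higher and 4 lower, with a median of 0.023 beside 0.0099. There 0% of all genes passed edgeR's test, and no member had an unadjusted p under 0.05, which 6.06% of all genes had. The 3 comparisons share the WT libraries.

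Other tools moved some of these counts. DESeq2 called 0 members in Hdac2 ECKO, 1 in the Ezh2-labelled libraries and 0 in beta-catenin GOF, where it called 19.9%, 10.1% and 0.302% of all genes. By limma-trend no member was called in the 3 comparisons, against 12.9%, 1.99% and 0.00795% of all genes. The voom fit with sample quality weights, which gives libraries that stand apart less weight, called 5, 3 and 0 members, against 42.7%, 29.8% and 0.207% of all genes. No value overlapped WT for 2 members in Hdac2 ECKO, where 37.8% of all genes did not overlap. The same held for 1 member in the Ezh2-labelled libraries (22% of all genes) and 1 in beta-catenin GOF (12.7% of all genes). These shares of members were 22.2%, 11.1% and 11.1%. Among 9 members a single gene makes 11.1%, so the shares are too coarse to compare closely with those of all genes.

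**Figure D2:**
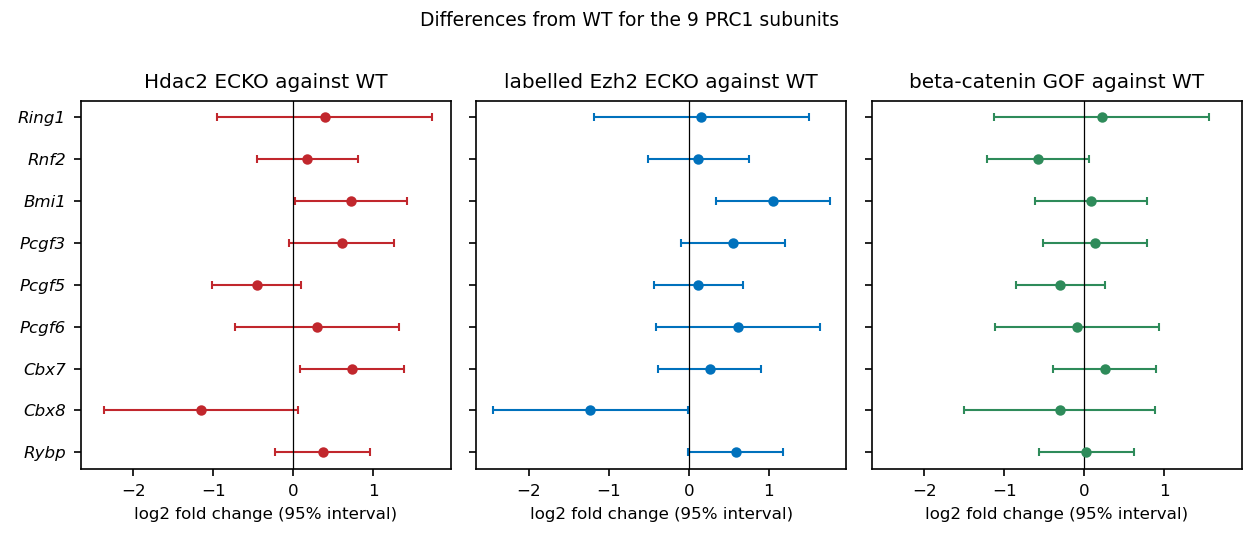
Log2 fold changes against WT (points) with 95% intervals (bars) for the 9 subunits in Hdac2 ECKO, the Ezh2-labelled libraries and beta-catenin GOF, from the edgeR fit over 12 libraries. The intervals of Bmi1 and Cbx7 in Hdac2 ECKO and of Bmi1 and Cbx8 in the Ezh2-labelled libraries lie off 0, before any adjustment for the number of genes.

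Ring1 and Rnf2 are the catalytic RING ligases, and each PRC1 holds 1 of them. Rnf2 stood at 65.2, 44.9 and 42.1 CPM in WT replicates 1, 2 and 3, against 36.0, 30.3 and 35.6 CPM for beta-catenin GOF. All beta-catenin GOF values lay below all WT values. The fitted log2 fold change was -0.58 (SE 0.30, 95% interval -1.21 to 0.056, edgeR adjusted p 0.858), and it was -0.36 without WT replicate 1. In Hdac2 ECKO, Rnf2 stood at 72.9, 34.8 and 64.6 CPM, with replicate 2 below every WT value and replicate 1 above. Among the Ezh2-labelled libraries it stood at 45.8, 49.2 and 70.1 CPM, a range that overlapped WT. Log2 fold changes against WT were 0.18 (95% interval -0.46 to 0.81) and 0.12 (-0.51 to 0.75), with edgeR adjusted p of 0.705 and 0.838.

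Ring1, the paralogue of Rnf2, was scarce. It rested on 26 to 94 counts per library, and on fewer read pairs if both mates were counted. Its levels were 1.80, 2.12 and 1.32 CPM in WT, 3.29, 2.22 and 1.39 CPM for Hdac2 ECKO, 2.53, 1.73 and 1.58 CPM in the Ezh2-labelled libraries, and 0.886, 2.48 and 2.73 CPM in beta-catenin GOF. All groups overlapped. The 95% intervals against WT ran from -0.95 to 1.74, -1.19 to 1.50 and -1.12 to 1.56 on the log2 scale and were the widest of the 9 members. Without Hdac2 ECKO replicate 1 the log2 fold change of Ring1 in that group dropped from 0.39 to 0.034. Per kilobase, Rnf2 exceeded Ring1 by 9.61 to 36.6 times within single libraries (median 19.9).

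The PCGF protein defines the kind of PRC1. Bmi1, a PCGF subunit found in canonical complexes and known as a repressor of Cdkn2a, stood at 49.5, 41.3 and 67.4 CPM in WT. In the Ezh2-labelled libraries it stood at 128, 63.2 and 136 CPM: replicates 1 and 3 lay above every WT value and replicate 2 within the WT range. Means were 52.7 ± 13.3 CPM and 109 ± 40.1 CPM (SD, n = 3 each), a 2.07-fold difference. The log2 fold change of 1.05 (SE 0.33, 95% interval 0.34 to 1.76) had the smallest adjusted p of the members, 0.0888 by edgeR, and did not pass.

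The Bmi1 call depended on the setting. Without replicate 2 of the Ezh2-labelled libraries the log2 fold change was 1.33 (edgeR adjusted p 0.0135), in a fit that called 18.5% of all genes. Bmi1 also passed with DESeq2 (1.03, adjusted p 0.0333), with voom and sample weights (1.41, adjusted p 0.00181) and in edgeR with no filter on low counts (1.05, adjusted p 0.0156), where 6.72% of the genes tested passed. Over all alternatives the value ranged from 0.86 to 1.41 and the adjusted p from 0.00181 to 0.283. Its direction was the same in each.

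**Figure D3:**
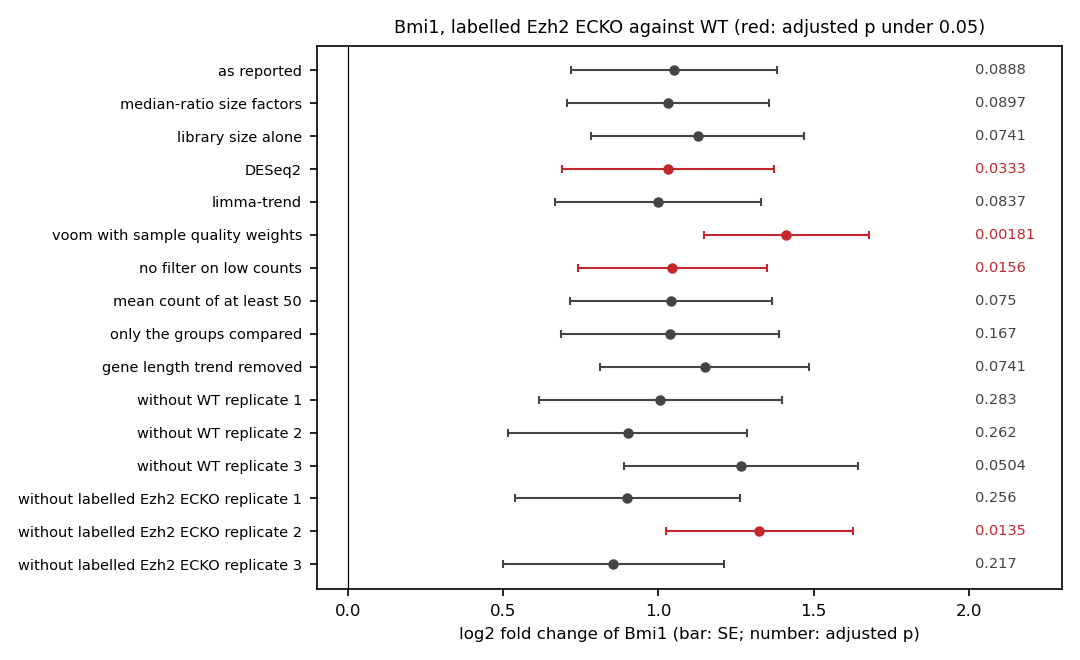
Log2 fold change of Bmi1 in the Ezh2-labelled libraries against WT (points, with bars of 1 SE) as reported and under alternative settings, with the adjusted p beside each. All values lie between 0.86 and 1.41, and 4 of the settings shown (red) pass the threshold of 0.05.

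In Hdac2 ECKO, Bmi1 stood at 110.4, 56.4 and 94.0 CPM, with replicates 1 and 3 above every WT value and replicate 2 within the WT range. The log2 fold change was 0.72 (SE 0.33, 95% interval 0.016 to 1.43, edgeR adjusted p 0.143). In beta-catenin GOF it stood at 69.9, 44.7 and 52.7 CPM, overlapping WT, with a log2 fold change of 0.080 (-0.62 to 0.78, edgeR adjusted p 0.989). The replicates in which Bmi1 was low, replicate 2 of each ECKO group, also lay nearer WT than the others of their group on the first principal component of all genes. Their scores were 9.30 and -33.2, against 47.7 to 84.3 for the other 4 ECKO libraries and -66.5 to -26.3 for WT. Bmi1 is itself 1 of the genes from which that component was computed.

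Pcgf3, a variant-complex PCGF with a close paralogue in Pcgf5, stood at 13.9, 14.5 and 16.7 CPM in WT. Hdac2 ECKO replicates held 25.3, 15.0 and 28.2 CPM, and the Ezh2-labelled replicates 28.2, 15.3 and 22.7 CPM. As for Bmi1, replicates 1 and 3 of both groups lay above all WT values and replicate 2 lay among them. Log2 fold changes were 0.60 and 0.55, each with an SE of 0.31 and with edgeR adjusted p of 0.180 and 0.272. The exons of Pcgf3 are longer than those of 88.5% of the genes tested, and across the 12577 genes longer genes tended to be higher in both groups (Spearman's rho of log2 fold change and length 0.44 and 0.29, a description over genes, which are not independent replicates). With this length trend removed the Pcgf3 differences were 0.077 and 0.19 (edgeR adjusted p 0.877 and 0.681). Without Hdac2 ECKO replicate 3 the first was 0.40, and without replicate 1 of the Ezh2-labelled libraries the second was 0.32. In beta-catenin GOF the levels of 13.7, 19.4 and 16.3 CPM overlapped WT (0.13, edgeR adjusted p 0.975).

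Pcgf5, the paralogue of Pcgf3, went the other way in Hdac2 ECKO. Its levels were 37.6, 43.6 and 42.6 CPM in WT, against 36.2, 27.9 and 26.3 CPM for Hdac2 ECKO, with no overlap. The log2 fold change of -0.45 (SE 0.26, 95% interval -1.01 to 0.10) did not pass (edgeR adjusted p 0.235). Pcgf5 is longer still, its exons exceeding those of 95% of the genes tested. With the length trend removed Pcgf5 fell by 1.12 on the log2 scale and passed (edgeR adjusted p 0.0264), in a fit that called 4.58% of all genes.

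Pcgf5 in the Ezh2-labelled libraries stood at 57.0, 32.5 and 44.8 CPM, which enclosed the WT range. Its log2 fold change there was 0.12 (95% interval -0.44 to 0.67), and -0.35 with the length trend removed. In beta-catenin GOF it stood at 32.5, 28.9 and 39.2 CPM, of which 2 values lay below WT (log2 fold change -0.30, edgeR adjusted p 0.929).

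Pcgf6, the PCGF of complexes that also hold Mga, Max and E2f6, was low and variable. It stood at 3.26, 9.56 and 5.98 CPM in WT, and replicates of the other groups fell between 3.34 and 13.2 CPM. Every group overlapped WT. Log2 fold changes against WT were 0.30 in Hdac2 ECKO, 0.61 in the Ezh2-labelled libraries and -0.090 in beta-catenin GOF, with edgeR adjusted p of 0.694, 0.444 and 0.993. Without WT replicate 1 the first was -0.014, and without replicate 2 it was 0.74.

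Cbx7 and Cbx8 are the 2 CBX readers of the H3 methyl mark among the members, and they differed in opposite directions in Hdac2 ECKO. Cbx7 stood at 10.8, 13.7 and 12.6 CPM in WT, against 23.2, 18.3 and 20.3 CPM for Hdac2 ECKO. Every Hdac2 ECKO value exceeded every WT value. The log2 fold change was 0.74 (SE 0.30, 95% interval 0.091 to 1.38), and its edgeR adjusted p of 0.110 did not pass. With the length trend removed it was 0.47 (edgeR adjusted p 0.280). Cbx7 in the Ezh2-labelled libraries stood at 18.2, 9.20 and 17.0 CPM, on both sides of WT (0.26, edgeR adjusted p 0.620). That value was 0.068 with the length trend removed, 0.063 without replicate 1 and 0.51 without replicate 2 of those libraries. In beta-catenin GOF it stood at 17.1, 15.9 and 11.2 CPM, overlapping WT (0.25, edgeR adjusted p 0.951).

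Cbx8 stood at 8.12, 6.39 and 4.84 CPM in WT. The Ezh2-labelled libraries held 3.76, 3.70 and 0.790 CPM, all below WT, with replicate 3 resting on 22 counts. The log2 fold change of -1.23 (SE 0.57, 95% interval -2.45 to -0.012) did not pass (edgeR adjusted p 0.198), and without that replicate it was -0.81. In Hdac2 ECKO it stood at 1.89, 1.76 and 5.06 CPM, where only replicate 3 reached the WT range (-1.15, SE 0.57, edgeR adjusted p 0.172, and -1.84 without that replicate). In beta-catenin GOF it stood at 5.73, 5.67 and 4.24 CPM, largely within the WT range (-0.31, edgeR adjusted p 0.963).

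Rybp joins the RING protein of variant complexes and occupies the site that a CBX protein takes in canonical ones. It stood at 41.2, 41.0 and 49.9 CPM in WT and at 82.0, 47.7 and 68.9 CPM in the Ezh2-labelled libraries. Replicates 1 and 3 lay above WT and replicate 2 within it, as for Bmi1. The log2 fold change was 0.59 (SE 0.28, 95% interval -0.0063 to 1.18, edgeR adjusted p 0.206), and 0.38 without replicate 1 of those libraries. In Hdac2 ECKO, Rybp stood at 51.2, 41.7 and 77.5 CPM (0.37, edgeR adjusted p 0.370). Without replicate 3, the highest, that log2 fold change was 0.060 (edgeR adjusted p 0.922). Its levels in beta-catenin GOF were 51.3, 43.6 and 39.3 CPM (0.023, 95% interval -0.57 to 0.61, edgeR adjusted p 0.998).

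**Figure D4:**
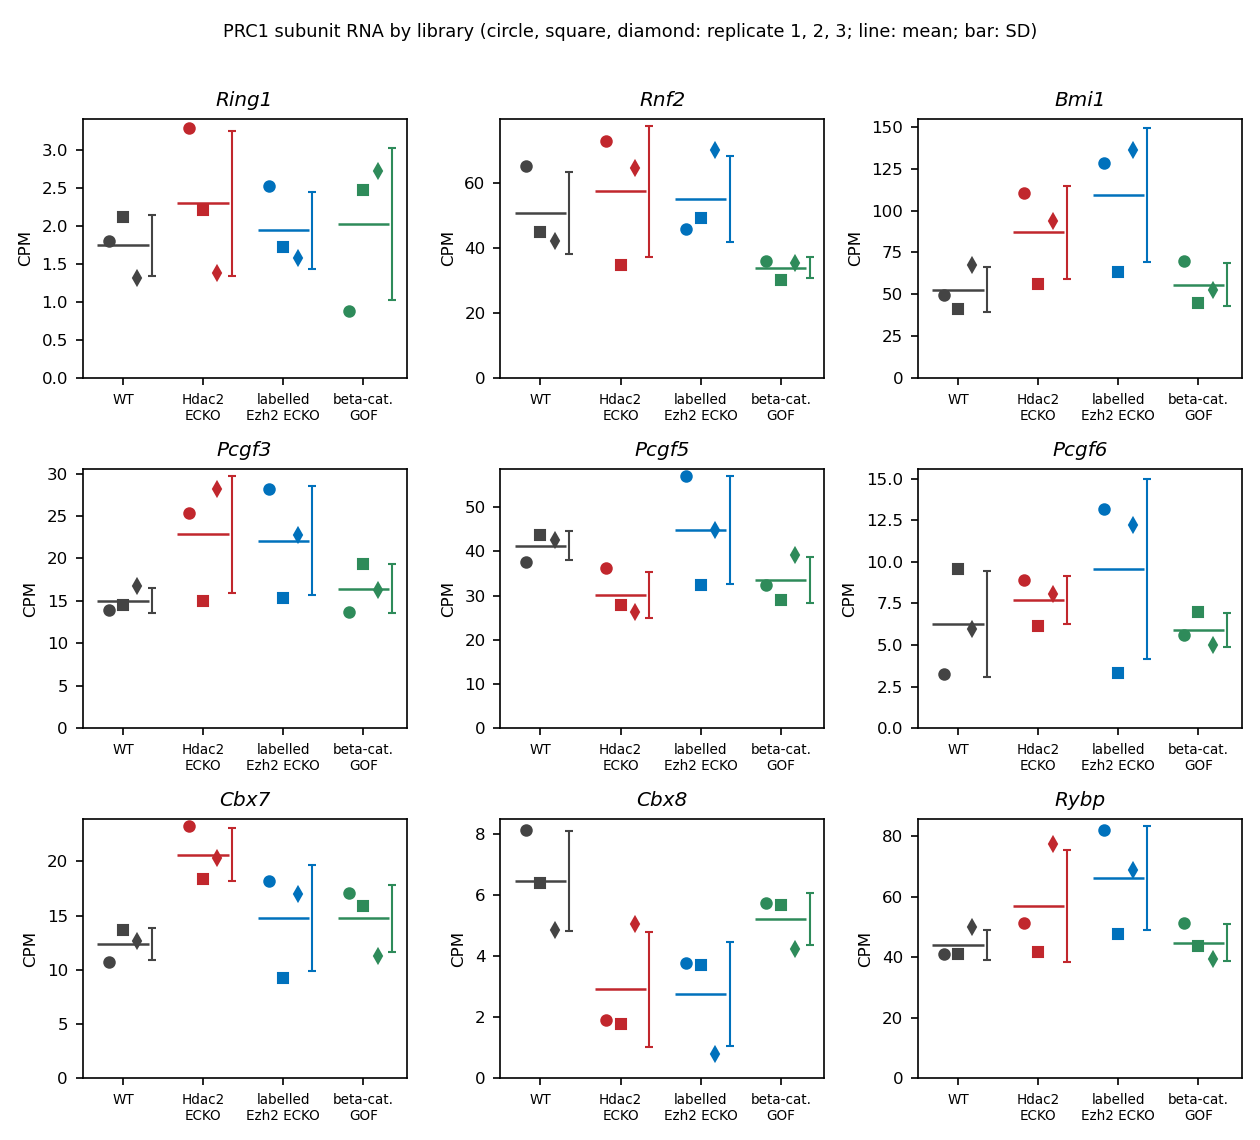
Levels of each subunit in CPM by group, with replicates 1, 2 and 3 as circle, square and diamond, a line at the mean and a bar of 1 SD (n = 3). Bmi1, Pcgf3 and Rybp show replicates 1 and 3 of both ECKO groups above all WT values and replicate 2 inside the WT range, Cbx7 is higher throughout Hdac2 ECKO, and Rnf2 is lower throughout beta-catenin GOF.

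With the voom weights, those that passed in Hdac2 ECKO were Bmi1 (0.97, adjusted p 0.00349), Pcgf3 (0.80, adjusted p 0.0148), Pcgf5 (-0.58, adjusted p 0.0285), Cbx7 (0.68, adjusted p 0.0265) and Rybp (0.65, adjusted p 0.0241). For the Ezh2-labelled libraries they were Bmi1, Cbx8 (-1.71, adjusted p 0.0440) and Rybp (0.78, adjusted p 0.0258). The edgeR fit as reported passed none of these.

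Red cell transcripts differed between groups and also between libraries of a group. The 5 listed genes summed to 36116 to 61351 CPM in WT, 400.5 to 21666 CPM for Hdac2 ECKO, 2518 to 6661 CPM in the Ezh2-labelled libraries and 509.5 to 35349 CPM in beta-catenin GOF, so every mutant library lay below WT. The 10 pericyte and smooth muscle markers summed to 56.8 to 116 CPM in WT, against 115 to 303 CPM for Hdac2 ECKO, 50.3 to 67.0 CPM in the Ezh2-labelled libraries and 105 to 370.2 CPM in beta-catenin GOF, with Cnn1 at 0 in all WT libraries. The 7 microglia and leukocyte markers summed to 3.35 to 4.41 CPM in WT and to at most 1.89 CPM in any mutant library, with Cd53 at 0 in all of those. Their part in the PRC1 values was not tested. In bulk RNA, fewer cells of a type and less RNA per cell cannot be told apart.

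Ratios within a library compare related subunits without reference to library scaling, but they were not corrected for the trend with gene length. Bmi1 exceeded Pcgf5 per kilobase by 3.01 to 5.03 times in WT, 6.42 to 11.3 times in Hdac2 ECKO and 6.18 to 9.66 times in the Ezh2-labelled libraries. Neither ECKO range overlapped WT, while beta-catenin GOF, at 4.27 to 6.84, did. Differences of the mean log2 ratio from WT were 1.16 and 0.92, each with an exact two-sided permutation p of 0.1, the smallest that 3 against 3 libraries can give, and 0.4 after adjustment over 24 such tests.

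Per kilobase, Cbx7 over Cbx8 was 0.751 to 1.48 in WT and 2.27 to 6.95 in Hdac2 ECKO. It was 1.41 to 12.2 in the Ezh2-labelled libraries and 1.50 to 1.69 in beta-catenin GOF. Hdac2 ECKO and beta-catenin GOF lay wholly above WT (log2 differences of 2.04 and 0.53, exact permutation p 0.1, adjusted 0.4). Yaf2, the paralogue of Rybp and no member here, exceeded Rybp per kilobase by 6.50 to 10.3 times in WT. In Hdac2 ECKO it did so by 2.37 to 4.85 times. The latter range lay wholly below WT (log2 difference -1.29, exact permutation p 0.1, adjusted 0.4). In none of these could the exact test pass a threshold of 0.05. With the length trend removed, Yaf2 and Rybp differed from WT by -0.35 and 0.30 in Hdac2 ECKO, beside -0.97 and 0.37 as reported. Cbx7 and Cbx8 differed by 0.47 and -0.97 there, beside 0.74 and -1.15. Bmi1 and Pcgf5 moved farther apart, to 0.80 and -1.12, beside 0.72 and -0.45.

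**Figure D5:**
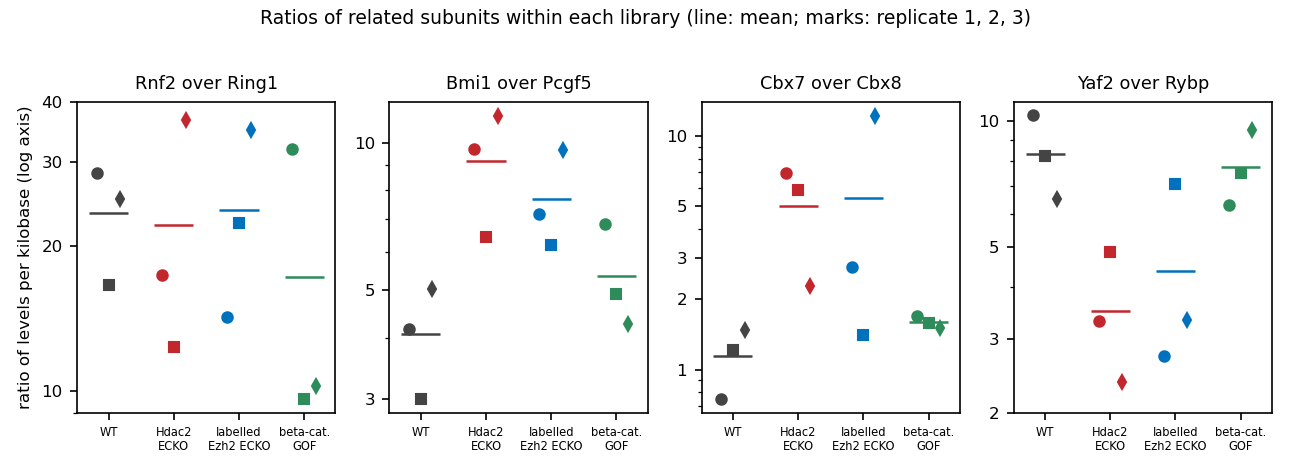
Ratios of CPM per kilobase between related subunits within each library (log axes), with replicates 1, 2 and 3 as circle, square and diamond and a line at the group mean (n = 3). Bmi1 over Pcgf5 lies above WT in all 6 ECKO libraries, and Yaf2 over Rybp lies below WT in all 3 Hdac2 ECKO libraries. The ratios were not corrected for the trend with gene length.

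Beyond the 9 members, all 30 other listed PRC1 subunits were tested. In Hdac2 ECKO, 4 rose and 2 fell by edgeR (6 of 30, where 9.2% of all genes passed). An unadjusted p under 0.05 was reached by 10 of the 30, and DESeq2, limma-trend and voom called 7, 6 and 14. The matching shares of all genes were 33.1%, 19.9%, 12.9% and 42.7%. By the fitted value 22 of the 30 were higher, with a median log2 fold change of 0.45 beside 0.097 over all genes. The largest rise was that of Auts2, a partner of Pcgf3 and Pcgf5 complexes, from 17.7 ± 4.34 to 50.7 ± 13.5 CPM (1.52, SE 0.34, edgeR adjusted p 0.0338). Cbx6, a CBX reader, rose from 8.86 ± 1.39 to 19.0 ± 0.597 CPM (1.10, edgeR adjusted p 0.0360). Mga and Cbx3, both found in the Pcgf6 complex, rose by 1.05 and 0.72 on the log2 scale (edgeR adjusted p 0.0360 and 0.0457).

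Yaf2 fell from 143 ± 21.8 to 73.2 ± 6.49 CPM (-0.97, SE 0.23, edgeR adjusted p 0.0342). Csnk2b, the regulatory subunit of casein kinase 2 and a partner of variant complexes, fell from 126 ± 9.40 to 65.3 ± 14.2 CPM (-0.95, edgeR adjusted p 0.0456). None of these 6 passed with the length trend removed, where their adjusted p ranged from 0.102 to 0.333 with the same directions. Of 6 fits that each dropped 1 WT or Hdac2 ECKO library, every one of these genes passed in 2, those without WT replicate 3 and without Hdac2 ECKO replicate 2. Over all genes, edgeR called 1 gene without Hdac2 ECKO replicate 1 and 0 without replicate 3, against 1157 with all libraries and 2220 without replicate 2.

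No other PRC1 subunit passed edgeR's test in the Ezh2-labelled libraries, where 1.03% of all genes did. An unadjusted p under 0.05 was reached by 3 of the 30, DESeq2 called 2, limma-trend 0 and the voom fit 9, where 24.7%, 10.1%, 1.99% and 29.8% of all genes met the same criteria. The fitted values were higher for 21, with a median of 0.23 beside 0.048 over all genes. In beta-catenin GOF none passed with edgeR, DESeq2, limma-trend or voom, beside 0%, 0.302%, 0.00795% and 0.207% of all genes. None had an unadjusted p under 0.05 there, which 6.06% of all genes had.

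PRC2 lays down the methyl mark that CBX proteins read. Of its 11 listed genes, edgeR called 2 in Hdac2 ECKO, where it called 9.2% of all genes. There 5 had an unadjusted p under 0.05, and DESeq2, limma-trend and voom called 3, 2 and 6. The matching shares of all genes were 33.1%, 19.9%, 12.9% and 42.7%. Jarid2, an accessory subunit, rose from 20.3 ± 5.51 to 46.3 ± 7.58 CPM (1.19, edgeR adjusted p 0.0381). The histone-binding subunit Rbbp4, shared with deacetylase complexes, fell from 115 ± 27.5 to 58.2 ± 6.81 CPM (-0.98, edgeR adjusted p 0.0408). With the length trend removed Rbbp4 still passed (-1.46, edgeR adjusted p 0.0264) and Jarid2 did not (0.68, edgeR adjusted p 0.0928). Both had the same 2 of 6 leave-one-out results as the PRC1 genes above. No PRC2 gene passed edgeR in the Ezh2-labelled libraries (4 with an unadjusted p under 0.05, 2 by DESeq2, 0 by limma-trend and 7 by voom, beside the same 24.7%, 10.1%, 1.99% and 29.8% of all genes) or in beta-catenin GOF (1, 0, 0 and 0, beside 6.06%, 0.302%, 0.00795% and 0.207% of all genes).

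The enzymes that remove ubiquitin from H2A oppose PRC1. Of 8 listed genes, 7 were tested and none passed edgeR in any comparison with WT. There 9.2%, 1.03% and 0% of all genes passed in Hdac2 ECKO, the Ezh2-labelled libraries and beta-catenin GOF. In Hdac2 ECKO, 2 had an unadjusted p under 0.05, and DESeq2, limma-trend and voom called 1, 1 and 2, where the shares of all genes were 33.1%, 19.9%, 12.9% and 42.7%. In the Ezh2-labelled libraries these counts were 1, 0, 0 and 2, beside 24.7%, 10.1%, 1.99% and 29.8% of all genes. In beta-catenin GOF all were 0, beside 6.06%, 0.302%, 0.00795% and 0.207% of all genes. The smallest p values belonged to Asxl2, a cofactor of the deubiquitinase Bap1, at 29.1 ± 4.60 CPM in WT against 56.9 ± 14.3 CPM for Hdac2 ECKO (0.97, edgeR adjusted p 0.0553), and to Usp16 in the Ezh2-labelled libraries (-0.64, edgeR adjusted p 0.117).

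Classic Polycomb targets were nearly silent in every group. Of 41 listed genes, the 39 Hox genes and Cdkn2a did not reach the mean count of 10 needed for a test. No Hox gene exceeded 20 counts in any library, 5 were at 0 in all 12, and Cdkn2a, which encodes the cell cycle inhibitor p16, had at most 6 counts. Only its neighbour Cdkn2b, which encodes another inhibitor of the cell cycle, was expressed, at 52.9 ± 5.87 CPM in WT, 29.1 ± 8.58 CPM for Hdac2 ECKO, 38.5 ± 23.7 CPM in the Ezh2-labelled libraries and 78.9 ± 18.6 CPM in beta-catenin GOF. Its log2 fold changes of -0.86, -0.46 and 0.58 did not pass (edgeR adjusted p 0.119, 0.450 and 0.892). Neither DESeq2 nor limma-trend called it against WT, and the voom fit called it lower in Hdac2 ECKO and in the Ezh2-labelled libraries, where it called 42.7% and 29.8% of all genes.

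Between mutants, no member passed either. Between Hdac2 ECKO and the Ezh2-labelled libraries, where edgeR called 0.0239% of all genes and 13.2% did not overlap, Cbx7 was the 1 member without overlap, higher in Hdac2 ECKO, and Pcgf5 the 1 with an unadjusted p under 0.05 (-0.57, edgeR adjusted p 0.606), which 8.19% of all genes had. Between beta-catenin GOF and Hdac2 ECKO the shares of all genes were 0.0716% and 32%. Cbx7 was lower without overlap in beta-catenin GOF, and Rnf2 had the 1 unadjusted p under 0.05 (-0.76, edgeR adjusted p 0.187), beside 21.1% of all genes.

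Between beta-catenin GOF and the Ezh2-labelled libraries, with shares of 0.0636% and 16.7% of all genes, Rnf2 was lower and Cbx8 higher without overlap. Rnf2 (-0.70, edgeR adjusted p 0.354) and Bmi1 (-0.97, edgeR adjusted p 0.299) had an unadjusted p under 0.05, as 13.2% of all genes did. Without replicate 2 of the Ezh2-labelled libraries, Bmi1 passed (-1.25, edgeR adjusted p 0.0378), as did 5.81% of all genes. Over these 3 comparisons between mutants, DESeq2 called no member, beside 0.779%, 4.24% and 1.14% of all genes, and limma-trend called none, beside 0.0477%, 0.0795% and 0.119%. The voom fit called 0, 2 and 1 members, beside 0.0875%, 26.5% and 11.6% of all genes.

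The members also varied together to different degrees over the 12 libraries. These correlations of log2 CPM are descriptions over libraries that share their group differences and scaling. Of 36 pairs of members, Bmi1 and Rybp were most alike (Pearson's r 0.86, Spearman's rho 0.88, and r 0.75 without the 2 libraries farthest from the Bmi1 median). Bmi1 and Cbx8 were least alike (r -0.63, rho -0.60, and -0.48 without 2 libraries). With the first principal component of all genes, r was 0.88 for Bmi1, 0.74 for Rybp and -0.64 for Cbx8. Whether these pairs were alike or unlike beyond that component was not tested. Ring1 and Rnf2, which take the same place in the complex, had an r of 0.0086 and a rho of -0.056, but an r of -0.65 without 2 libraries, so that value rested on those libraries.

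Over all tested genes, the closest pattern to that of Bmi1 was Kctd12 (r 0.97, rho 0.97), then Zxdb (r 0.96, rho 0.98). For Pcgf3 the closest were Usp19 (r 0.96) and the VEGF receptor gene Kdr (r 0.95), and for Cbx7 they were Pam (r 0.95) and Srgap2 (r 0.94). Rybp was closest to Gnal (r 0.95) and Tubgcp3 (r 0.94), Pcgf6 to Stag1 (r 0.92) and Rnf213 (r 0.91), and Rnf2 to Mfsd14a and Egr2 (r 0.91 each). Pcgf5 was closest to Glmn and C330018D20Rik (r 0.89 each), Ring1 to Rasa3 (r 0.86) and Ripk1 (r 0.85), and Cbx8 to Irx3 (r 0.86) and Aldh16a1 (r 0.85). Without the 2 libraries farthest from the member's median, these 18 values ranged from 0.63 for Ring1 and Rasa3 to 0.95 for Bmi1 and Kctd12.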

How the data were processed

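The authors deposited 1 count per gene and library for 12 libraries made with a SMART-Seq full-length cDNA kit and sequenced as read pairs. The submitters' processing notes name FastQC, cutadapt, STAR, featureCounts, DESeq2 and mm10, without versions, and the table's title calls the counts normalized. The deposited values were nonetheless whole numbers with differing totals, and 79.1% to 83.5% of those from 10 to 50 were even, against 59.3% to 67.1% from 300 to 1000, a pattern of counting both mates, so they were treated as counts without scaling. Reads carry no molecular identifiers, and 3 counts correspond to 0.0831 to 0.121 CPM.

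Groups came from the sample titles. Values reported come from edgeR 4.0.16 under R 4.3.3, by the quasi-likelihood F test, with TMM scaling, all 12 libraries and a term per group. The 12577 genes averaging 10 or more counts were tested, with Benjamini-Hochberg adjustment within each of 6 contrasts and a threshold of 0.05. The script was tested on simulated data. Alternatives were DESeq2 1.42.0, limma-trend and voom with sample weights (limma 3.58.1), other scalings and filters, a fit of the compared groups alone, the replicate number as a block, removal of the trend with gene length, and leaving out each library. CPM was computed on TMM-scaled totals, and likeness on log2 of CPM plus 0.1.

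The members, lists and tests were chosen with earlier results of these data known. Named are the 9 members with every library value, the targeted genes, list members past the threshold in a contrast with WT (at most 6 per list by p, or the 2 with the smallest p where none passed), the cell type markers, and the 2 genes most correlated with each member. Protein sequences were not used here. The other marker lists summed to 5.61 to 50.4 CPM for platelet, 2.11 to 68.6 CPM for oligodendrocyte and at most 4.71 CPM for fibroblast genes.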

Additional observations from a re-analysis of the deposited data

How the results depend on the processing

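In the 3 comparisons with WT, 439 of the 459 values of members under the alternatives kept the direction of the reported value, and 16 of the 27 pairs of member and comparison kept it in every alternative. The number of members past the threshold was 0 as reported in each of 6 comparisons. In Hdac2 ECKO against WT it was 5 with voom weights, 1 with the length trend removed and 1 with the replicate block and the length trend removed (Pcgf5 in both), and 0 in each fit without 1 library. In the Ezh2-labelled libraries against WT it was 1 with DESeq2, 3 with voom weights, 1 with no filter, 1 with the replicate block and 1 with the block and the length trend removed, each including Bmi1, and 0 to 1 without 1 library. With voom weights it was 2 in beta-catenin GOF against Hdac2 ECKO and 1 against the Ezh2-labelled libraries, where it was 0 to 1 without 1 library. The cause was not tested.

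Of the values of members, 20 reversed. Ring1 in Hdac2 ECKO was -0.15 with voom weights, Pcgf6 in beta-catenin GOF was 0.028 with limma-trend, and Pcgf5 in the Ezh2-labelled libraries was -0.35 with the length trend removed, with and without the replicate block. Leaving out 1 library at a time gave -0.058 to 0.40 for Rnf2 and -0.014 to 0.74 for Pcgf6 in Hdac2 ECKO, and -0.10 to 0.32 for Ring1, -0.11 to 0.34 for Rnf2 and -0.12 to 0.30 for Pcgf5 in the Ezh2-labelled libraries. In beta-catenin GOF it gave -0.052 to 0.57 for Ring1, -0.11 to 0.30 for Bmi1, -0.0065 to 0.25 for Pcgf3, -0.40 to 0.35 for Pcgf6 and -0.087 to 0.12 for Rybp.

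Same-numbered libraries deviated together with r of -0.14 to 0.27, and in comparisons with WT at most 2 of 6 libraries correlated best with their own number (4 of 6 between mutants), so the numbers were not taken as pairs. With the replicate block, Bmi1 in the Ezh2-labelled libraries was 1.00 (edgeR adjusted p 0.0415), and with the block and the length trend removed 1.09 (edgeR adjusted p 0.0339), so that it passed in 6 of 17 alternatives in all. Over all genes, calls without 1 library ranged from 0 to 2220 in Hdac2 ECKO and from 2 to 2328 in the Ezh2-labelled libraries. Scaling by library size alone moved the all-gene median in Hdac2 ECKO from 0.097 to 0.34 (log2). Counts were lowest for Cbx8, Ring1 and Pcgf6, at 22, 26 and 85 in their lowest libraries. The read pairs behind these were fewer if both mates were counted. Counting error was relatively largest for these members. How it compares with the spread between libraries was not tested.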
